A study of Homo sapiens with 21 samples.

Results

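The collagen genes are the genes that encode the chains of collagen triple helices. They were picked from the HNRNPK binding clusters by gene symbol alone, as every cluster whose gene name is COL, a number, A and a number. The rule found 1467 clusters of 778762 over 4 libraries, with 354 in the parental cytoplasm, 245 in the *KRT19* KO cytoplasm, 498 in the parental nucleus and 370 in the *KRT19* KO nucleus. These clusters lay in 36 genes, of 44 that carry such a symbol in the GENCODE annotation of GRCh37. No measured value enters this rule.

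HNRNPK was crosslinked to RNA and immunoprecipitated from MDA-MB-231 cells, an established triple-negative breast cancer line of mesenchymal type. Parental cells and a CRISPR-Cas9 *KRT19* KO derivative, which lacks keratin 19, were both given 4-thiouridine (4SU), irradiated with UV light and separated into cytoplasm and nucleus. In this method, PAR-CLIP, a 4SU that was linked to the protein is read as C instead of T, and a cluster is a group of overlapping reads with such changes. Each of the 4 conditions has 1 library, so no difference below has a replicate check and no p-value is given. The number of clones behind the *KRT19* KO line is not given in the sources used here, and the antibody also recognises HNRNPJ, a putative spliced form of HNRNPK.

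HNRNPK is a protein with KH domains that binds C-rich and CU-rich single-stranded RNA in both introns and mature mRNA. Collagens are the main structural proteins of the extracellular matrix, and their genes are known for many short coding exons that are separated by introns. Fibril-forming chains build tissue fibres, type IV chains build the basement membrane network, and FACIT chains (fibril-associated collagens with interrupted triple helices) sit on the surface of fibrils. Other collagens form short-chain networks, beaded filaments or anchoring fibrils, or span the plasma membrane. Tumour cells meet these proteins as matrix and also make some of them.

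Reads in clusters numbered 3252800 to 6216226 per library, and the collagens held 3917 to 8401 of them. Levels are given as reads per 1000000 reads in all clusters of the library (RPM). *KRT19* itself had 1 cluster in either cytoplasm, of 7 reads in parental and 5 reads in *KRT19* KO cells, and none was listed in the nuclei, which is too little to check the genotype. Clusters of *VIM* (6 to 10 per library) and *CD44* (54 to 72), markers of this cell type, were present in every library, whereas the epithelial *CDH1* had 1 cluster in all. *ESR1*, which is not a feature of this line, still had 2 to 10 clusters per library. Of the collagen clusters, 29.1%, 16.7%, 39.8% and 42.4% rested on 1 unique read in the parental cytoplasm, *KRT19* KO cytoplasm, parental nucleus and *KRT19* KO nucleus. Intervals are 95% intervals (exact Poisson for RPM, exact conditional binomial for ratios, Wilson for shares). They cover counting error at most and treat every read as an independent count. The authors report removing potential PCR duplicates with unique molecular identifiers (UMIs). Several reads may still come from the same RNA molecule, so the intervals may be too narrow even for counting error. Unique reads made up 30.6%, 42.1%, 20.8% and 19.7% of the collagen reads in the libraries, in the order just given. In these bulk libraries, fewer cells that express a gene, less of its RNA per cell and less binding per RNA cannot be told apart.

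The strongest short clusters show what HNRNPK contacted in these RNAs. The sequences below are read 5′ to 3′ on the strand of the gene, with T for U, and are at most 30 nt long. Capitals mark the C-rich motif searched for on the strand of the RNA, a CCC preceded by A, C or T and, before that, by A or T. Overlapping matches are run together. The first 8 are the clusters with the most reads within that length in each of the 8 genes with the most reads.
*COL13A1*, intron, chr10:71628633-71628662 (GRCh37, plus strand): aattcctatcatccatcttccaaaataaac
*COL8A1*, 3′UTR, chr3:99515887-99515916 (plus strand): aaaaaattcttcctctaataactttccaaa
*COL4A2*, intron, chr13:111084079-111084108 (plus strand): atcatccacAACCCCctccctatccactcc
*COL4A5*, intron, chrX:107686772-107686800 (plus strand): atatccaattttattcacaaactatatag
*COL12A1*, 3′UTR, chr6:75795439-75795467 (minus strand): acTTCCCCtcacctcctcatctttccaag
*COL4A1*, intron, chr13:110888646-110888674 (minus strand): ataccataaatctaatacctaaatacaag
*COL5A1*, intron, chr9:137682475-137682504 (plus strand): tccatccatccatccatccatcttctatta
*COL7A1*, intron, chr3:48627281-48627308 (minus strand): cctaaaacctccaccTCCCCactcctcc
Another 4 were chosen after their values were seen, because later results turn on them.
*COL27A1*, coding exon, chr9:116931179-116931207 (plus strand): ctcctctaaaaAACCCaTTCCCacactag
*COL8A1*, 3′UTR, chr3:99516967-99516994 (plus strand): tcattattaccatcacaaaaattcttct
*COL4A1*, 3′UTR, chr13:110802325-110802353 (minus strand): ttgtattataattaattttcTACCCCcag
*COL13A1*, intron, chr10:71708702-71708730 (plus strand): cactttcctccATCCCCtttacaaattag
The motif is in 3 of the 8 sequences chosen by rule and in 6 of all 12. The others without it, such as the *COL8A1* and *COL13A1* clusters, contain no CCC at all. The *COL5A1* cluster is a tandem repeat of tcca, and its 57 reads were listed in the parental nucleus and in no other library. The *COL4A1* intron cluster, of 52 reads, was listed in the *KRT19* KO cytoplasm alone.

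Binding was concentrated in few collagens. The 5 genes *COL13A1*, *COL8A1*, *COL4A2*, *COL4A5* and *COL12A1* held 68.4% of the clusters and 73.1% of the reads. The 11 genes with at least 20 clusters held 94.3% of the clusters. The other 25 genes had 1 to 12 clusters each, 83 clusters with 851 reads in all, and 11 of them had a single cluster. No cluster was listed for 8 genes, namely *COL1A2*, *COL5A3*, *COL6A6*, *COL9A1*, *COL10A1*, *COL11A1*, *COL16A1* and *COL17A1*. Since the files hold only clusters of at least 5 reads, this does not show that the transcripts are unbound. A cluster was found in all 4 libraries for 13 genes and in 1 library for 11 genes.

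The transmembrane collagens led by reads (6536 reads in 303 clusters, 28.3% of the collagen reads), almost entirely through *COL13A1*. The basement membrane network followed, with 6167 reads in 445 clusters and all 6 type IV chain genes represented. Short-chain network genes had 3880 reads in 227 clusters, all but 1 of the clusters in *COL8A1*. FACIT genes had 2717 reads in 197 clusters, and fibril-forming genes 1922 reads in 156 clusters. The beaded filament genes of type VI collagen held 328 reads in 30 clusters, and the multiplexins *COL15A1* and *COL18A1* 593 reads in 58 clusters. *COL7A1*, the anchoring fibril collagen, and the remaining genes of no other class held 992 reads in 51 clusters. Genes whose products are the classic interstitial collagens had little signal, with 18 reads for *COL1A1*, 14 for *COL3A1* and 7 for *COL2A1* over the 4 libraries.

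**Figure D1:**
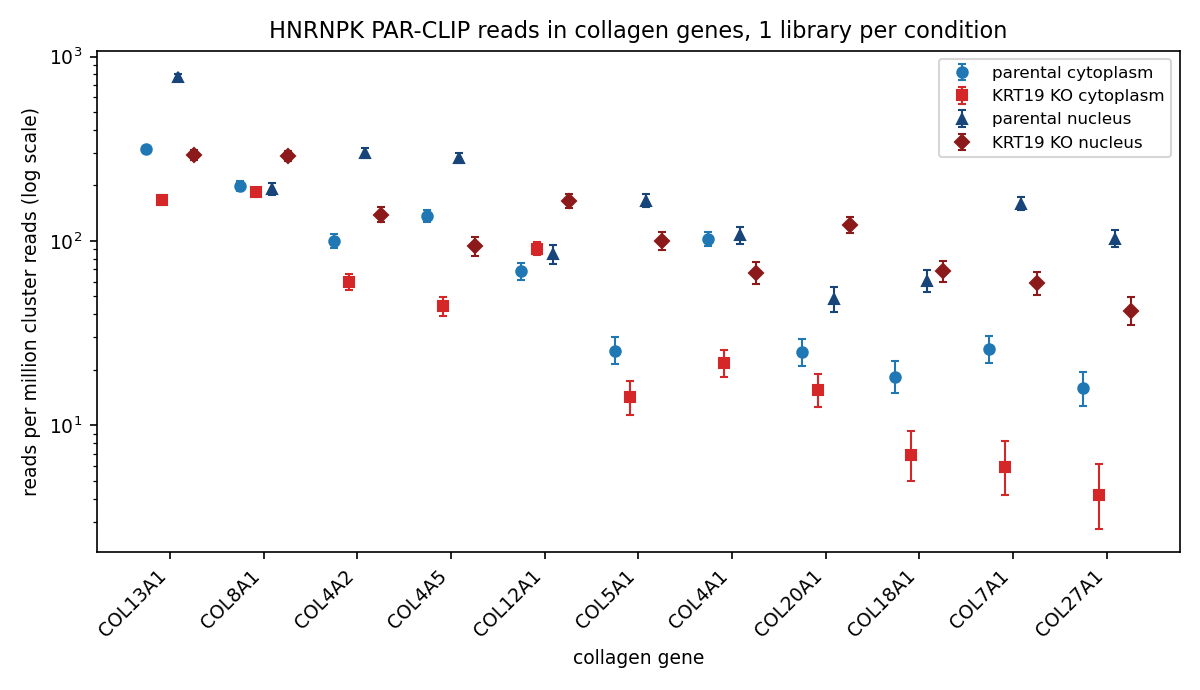
RPM (log axis) of the 11 collagen genes with at least 20 clusters, in order of their number of clusters, with 1 point per library and exact Poisson 95% intervals. *COL13A1* was highest in the parental nucleus at 779.6, and *COL27A1* lowest in the *KRT19* KO cytoplasm at 4.18.

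*COL13A1*, which encodes a transmembrane collagen of cell-matrix adhesion sites, was the collagen with the most HNRNPK clusters. It lies on chromosome 10 from 71561636 to 71724031. It had 67, 49, 119 and 61 clusters, and 313.8, 166.0, 779.6 and 293.3 RPM, in the parental cytoplasm, *KRT19* KO cytoplasm, parental nucleus and *KRT19* KO nucleus. The parental nucleus thus stood above the other 3 libraries, whose intervals did not reach it. Merged over the libraries, its 213 sites gave 131 sites per 100 kb, which was at the 91.3 percentile of 12638 protein-coding genes with a site. Of its clusters, 286 of 296 were intronic. Intron 2 held 80 of these, or 28.0% in 29.4% of the intron length, and intron 38 held 35, or 12.2% in 3.59%. In that 3′ part of the gene, the site with the most reads of any collagen (chr10:71711846-71711880) had 282 reads in the parental cytoplasm and 307 in the *KRT19* KO cytoplasm. It had 26 in the *KRT19* KO nucleus, and none was listed in the parental nucleus. The site of the first sequence above went otherwise, with 113 reads in the parental cytoplasm, 349 in the parental nucleus, 52 in the *KRT19* KO nucleus and no cluster in the *KRT19* KO cytoplasm. The site with the ATCCCC cluster was even, at 109, 100, 70 and 71 reads or 16.1 to 21.8 RPM.

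*COL8A1*, a short-chain network collagen of blood vessel walls and basement membranes, differed from *COL13A1* in where its reads lay. It spans chromosome 3 from 99357319 to 99518070. Its totals were 199.0, 183.6, 191.4 and 289.3 RPM in the parental cytoplasm, *KRT19* KO cytoplasm, parental nucleus and *KRT19* KO nucleus, so that 3 of the libraries were alike and the *KRT19* KO nucleus was higher. The long first intron, of 106 kb, held 184 of the 213 intronic clusters, or 86.4% in 68.5% of the intron length. In the 3′UTR, however, reads numbered 273 and 582 in the parental and *KRT19* KO cytoplasm and only 11 and 28 in the nuclei. This was 24.7% (22.25 to 27.33%) and 51.0% (48.11 to 53.90%) of the gene's reads in the cytoplasm, against 1.62% (0.910 to 2.89%) and 2.98% (2.07 to 4.27%) in the nucleus.

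**Figure D2:**
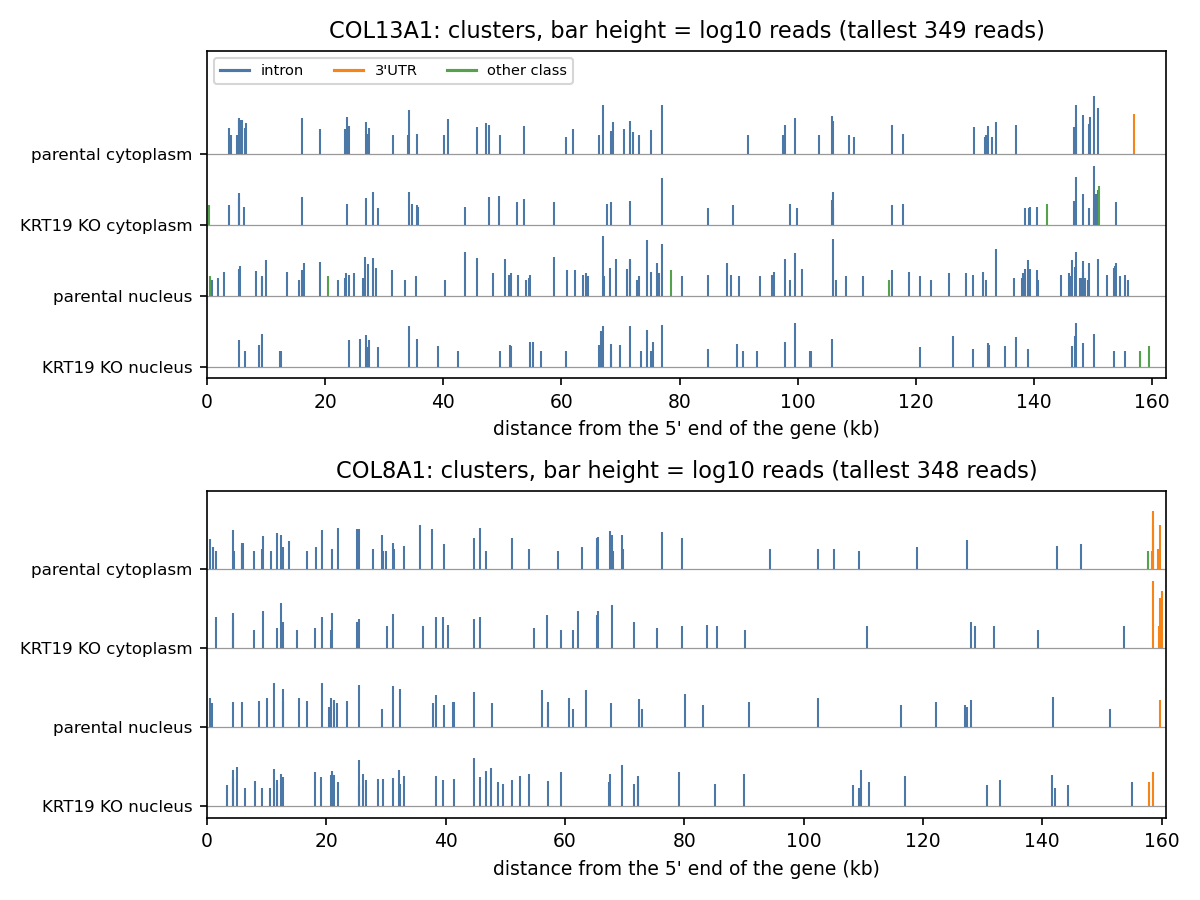
Clusters of *COL13A1* and *COL8A1* in the 4 libraries by distance from the 5′ end of the gene in kb. Bar height is log10 of the reads and colour the annotation class. Clusters are spread over all of *COL13A1*, whereas those of *COL8A1* are dense in the first intron and form a further group in the 3′UTR that is tallest in the cytoplasm.

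Among the type IV chains, whose genes lie in head-to-head pairs, the clusters of *COL4A2*, *COL4A5* and *COL4A1* were mostly intronic (177 of 182, 176 of 182 and 63 of 71). *COL4A2* had 99.97, 59.8, 299.9 and 139.0 RPM in the parental cytoplasm, *KRT19* KO cytoplasm, parental nucleus and *KRT19* KO nucleus. Of its 177 intronic clusters, 99 were in intron 4, or 55.9% in 33.7% of the intron length. *COL4A5*, whose mutation causes Alport syndrome, had 136.9, 44.2, 282.4 and 93.5 RPM. Its intron 1 held 74 clusters, or 42.0% of the intronic clusters in 39.6% of the intron length. In both genes the parental library exceeded the *KRT19* KO library of the same fraction.
*COL4A1* had 102.7, 21.7, 107.1 and 67.0 RPM in the same order, and although most of its clusters were intronic, 408 of its 570 parental cytoplasmic reads were in 3′UTR clusters. Nearly all of these, 393 reads, came from the site at chr13:110802324-110802363. The TACCCC sequence above is the cluster of 43 reads that this site had in the *KRT19* KO nucleus. That site had no cluster in the *KRT19* KO cytoplasm, 17 reads in the parental nucleus and 43 in the *KRT19* KO nucleus. In the parental cytoplasm it rested on 126 unique reads, and 31.6% of its reads carried a T-to-C change, against 67.0% of all collagen reads in that library. The clusters of *COL4A3*, *COL4A4* and *COL4A6* numbered 1, 1 and 8.

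*COL12A1*, a FACIT collagen found along type I fibrils, ran against most other members, with 68.4, 90.9, 84.5 and 165.1 RPM in the parental cytoplasm, *KRT19* KO cytoplasm, parental nucleus and *KRT19* KO nucleus. It had 100 intronic, 12 3′UTR and 5 coding clusters. Its 3′UTR site with the TTCCCC sequence was found in every library, with 34, 58, 27 and 34 reads in that order. The other FACIT gene with many clusters, *COL20A1*, had 24.9, 15.4, 48.3 and 121.7 RPM, and the *KRT19* KO nucleus was the highest of the 4.

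The remaining genes with at least 20 clusters were low in the cytoplasm. *COL5A1*, a chain that controls the diameter of type I fibrils, had 25.4 and 14.2 RPM in the parental and *KRT19* KO cytoplasm and 165.4 and 99.9 in the nuclei. *COL7A1*, the collagen of anchoring fibrils in skin, had 25.9 and 5.95 RPM in the cytoplasm and 159.4 and 59.0 in the nuclei. *COL18A1*, the source of endostatin, had 18.4 and 6.92 RPM in the cytoplasm and 60.5 and 68.6 in the nuclei. *COL27A1*, a fibril-forming collagen of cartilage, had 15.9 and 4.18 RPM in the cytoplasm and 102.9 and 41.8 in the nuclei. In these 4 genes both cytoplasmic libraries were below both nuclear ones. *COL27A1* also had the collagen coding site with the most reads, shown above with 2 matches to the motif. It had 12 reads in the parental cytoplasm, 106 in the parental nucleus and 75 in the *KRT19* KO nucleus, and no cluster was listed in the *KRT19* KO cytoplasm.

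By annotation class, collagen clusters were more often intronic than those of other genes in every library. Over the 4 libraries, 92.4% (90.97 to 93.68%) were in introns, against 76.2% of the clusters of other genes. The 3′UTR held 4.36% (3.43 to 5.53%) against 10.7%, coding sequence 1.70% against 3.33%, and 5′UTRs 0.341% against 0.408%. By reads, the 3′UTR share of the collagens was 15.1%, 19.9%, 1.92% and 5.28% in the parental cytoplasm, *KRT19* KO cytoplasm, parental nucleus and *KRT19* KO nucleus. For other genes it was 37.8%, 53.7%, 6.43% and 6.90%. In the parental and *KRT19* KO cytoplasm, introns held 83.3% and 77.3% of the collagen reads and 50.5% and 26.0% of those of other genes.

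**Figure D3:**
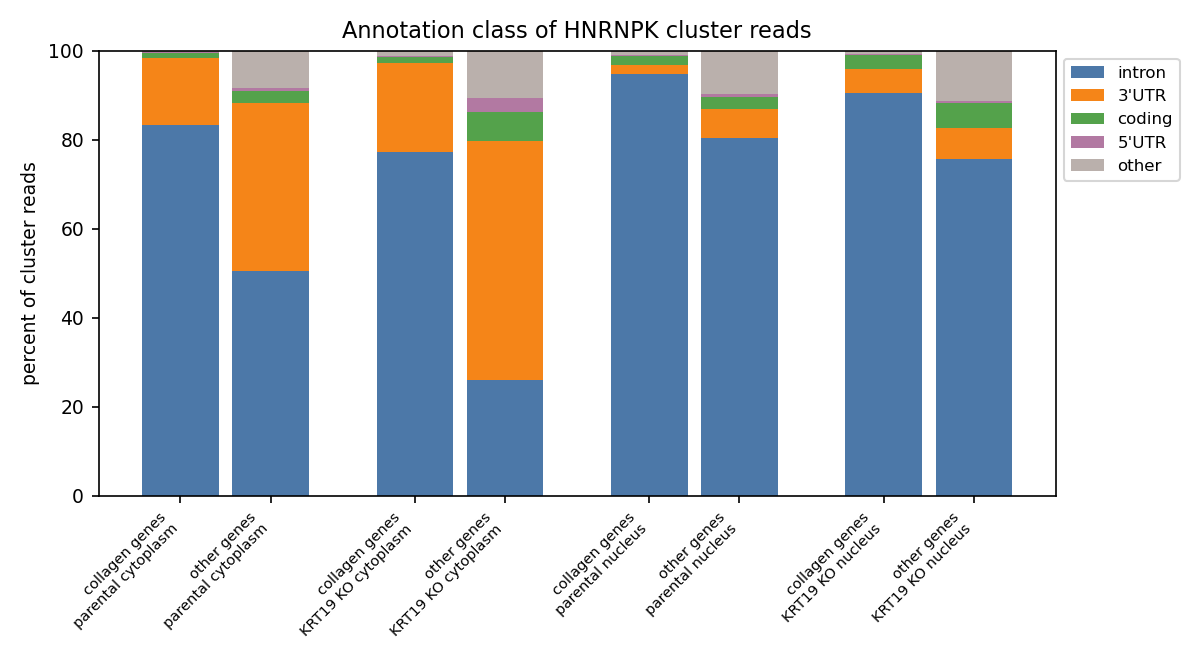
Percent of cluster reads by annotation class for collagen genes and for other genes in the 4 libraries, as stacked bars that start at 0. The intron share of the collagens exceeded that of other genes in each library, by most in the *KRT19* KO cytoplasm (77.3% against 26.0%).

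The first comparison asked how the share of HNRNPK cluster reads in collagens differed between *KRT19* KO and parental cytoplasm. The authors reported less HNRNPK protein in the cytoplasm of *KRT19* KO cells. RPM is scaled within each library, so the ratios do not measure the amount of binding. A gene is called here when its RPM ratio passed 2-fold, among genes with at least 50 reads in both libraries together. Collagens had 1061 RPM in parental and 630.1 in *KRT19* KO cytoplasm, a ratio of 0.594 (0.570 to 0.619). Of 12 members tested, 5 were lower by more than 2-fold (*COL4A1*, *COL4A5*, *COL7A1*, *COL18A1* and *COL27A1*), 1 was higher (*COL6A2*) and 6 were within 2-fold. Of all 9378 genes tested, 22.4% were lower and 20.6% higher. The median ratio was 0.543 over the members and 0.935 over all genes. The ratio was 0.212 (0.174 to 0.256) for *COL4A1*, 0.229 (0.155 to 0.331) for *COL7A1*, 0.264 (0.163 to 0.413) for *COL27A1*, 0.323 (0.280 to 0.371) for *COL4A5* and 0.376 (0.257 to 0.543) for *COL18A1*. *COL13A1* was at 0.529 (0.489 to 0.572) and *COL8A1* at 0.922 (0.848 to 1.00). *COL12A1* was at 1.33 (1.16 to 1.52), and *COL6A2*, with 15 and 39 reads, at 2.32 (1.25 to 4.53).

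Intronic reads as a whole were lower in the *KRT19* KO cytoplasm, and their part in the lower collagen level was not tested. Intronic collagen RPM had a ratio of 0.551 (0.526 to 0.576), and intronic reads of all genes a ratio of 0.544. When intronic clusters alone were counted per 1000000 intronic reads, 1 member was lower by more than 2-fold (*COL7A1*, 0.490) and 2 were higher (*COL12A1*, 2.12, and *COL6A2*, 4.27), against 5 lower and 1 higher above. No share of all genes called was taken on this intronic scale, so these counts have no baseline. On that scale *COL4A1* turned to 1.23, *COL4A5* was at 0.636, *COL18A1* at 0.692 and *COL27A1* at 0.562. The call of *COL4A1* also rested on its 3′UTR site, without which its ratio was 0.681 (0.540 to 0.857). *COL13A1* without its strongest site passed 2-fold, at 0.443 (0.405 to 0.485).

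The 3′UTR clusters of the main genes went in different directions between the cytoplasmic libraries. *COL8A1* had 49.2 RPM in its 3′UTR in the parental library and 93.6 in the other, a ratio of 1.90 (1.65 to 2.21), while its introns had a ratio of 0.604 (0.541 to 0.673). *COL12A1* went the same way, with a 3′UTR ratio of 2.70 (1.91 to 3.87) and an intron ratio of 1.15 (0.987 to 1.35). *COL4A1* went the other way, from 73.5 to 2.25 RPM in the 3′UTR, a ratio of 0.0306 (0.0166 to 0.0520). Its 14 *KRT19* KO reads were at chr13:110843706-110843731 and chr13:110843167-110843186, which the authors' annotation calls 3′UTR and which lie in an intron of the canonical transcript. *COL13A1* and *COL4A5* had 49 and 50 reads in 3′UTR clusters in the parental cytoplasm, and none was listed in the *KRT19* KO cytoplasm. For all collagens the 3′UTR ratio was 0.781 (0.708 to 0.861), and without the 1 site in *COL4A1* it was 1.40 (1.25 to 1.57), so its direction rested on that site. 3′UTR reads of all genes had a ratio of 1.498.

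**Figure D4:**
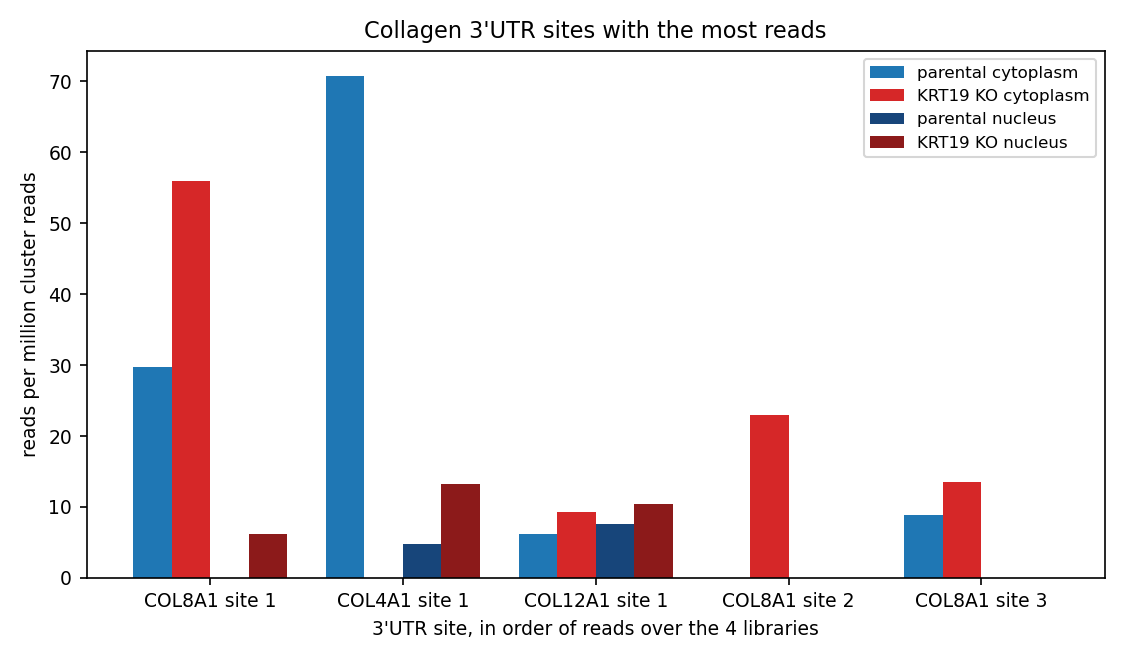
RPM at the 5 collagen 3′UTR sites with the most reads over the 4 libraries, 1 bar per library, from 0, with no bar where no cluster was listed. The first *COL8A1* site is highest in the *KRT19* KO cytoplasm (56.0), the *COL4A1* site in the parental cytoplasm (70.8), and the *COL12A1* site lies between 6.12 and 10.5 in all 4 libraries.

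In *COL8A1*, 3 sites made up most of the 3′UTR signal. The site at chr3:99515887-99515916, shown above, had 165 reads in the parental cytoplasm, 348 in the *KRT19* KO cytoplasm and 20 in the *KRT19* KO nucleus, with none listed in the parental nucleus. Its ratio of *KRT19* KO to parental cytoplasm was 1.88 (1.56 to 2.28). The site at chr3:99516967-99516994, also shown, had 49 and 84 reads in the parental and *KRT19* KO cytoplasm and none listed in the nuclei, a ratio of 1.53 (1.06 to 2.22). A further site at chr3:99517393-99517429 was listed with 143 reads in the *KRT19* KO cytoplasm alone, and another at chr3:99515810-99515868 with 48 reads in the parental cytoplasm alone.

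In the nucleus, *KRT19* KO cells again had less collagen signal than parental cells. Parental nuclei had 2375 collagen RPM and *KRT19* KO nuclei 1515, a ratio of 0.638 (0.616 to 0.661). Of 15 members tested, 7 were lower by more than 2-fold, 1 was higher and 7 were within 2-fold, where 18.2% and 14.4% of all 9371 genes tested were lower and higher. The median ratio was 0.604 over the members and 0.922 over all genes. Lower were *COL4A5* at 0.331 (0.290 to 0.377), *COL7A1* at 0.370 (0.313 to 0.437), *COL13A1* at 0.376 (0.349 to 0.405), *COL27A1* at 0.406 (0.331 to 0.496) and *COL4A2* at 0.463 (0.414 to 0.518). Also lower were *COL6A1* at 0.423 (0.263 to 0.663) and *COL6A2* at 0.494 (0.276 to 0.857), both chains of the microfibril-forming type VI collagen, on 100 and 64 reads. Without its strongest site *COL6A1* was at 1.17. Higher was *COL20A1* at 2.52 (2.10 to 3.03), while *COL12A1* at 1.95 (1.69 to 2.26) and *COL8A1* at 1.51 (1.37 to 1.67) were above 1 but within 2-fold. *COL12A1* passed 2-fold without its strongest site, at 2.25 (1.92 to 2.63).

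Here the intronic reads of the whole library did not move with the collagens as far as in the cytoplasm. The intronic collagen ratio in the nucleus was 0.609 (0.587 to 0.632) and that of all genes 0.891. Per 1000000 intronic reads, 5 members were lower by more than 2-fold (*COL4A5*, *COL6A1*, *COL7A1*, *COL13A1* and *COL27A1*) and 2 higher (*COL12A1* and *COL20A1*), against 7 and 1 above. For the nucleus too, no share of all genes called was taken on the intronic scale. The 3′UTR reads of the collagens were 45.5 RPM in parental and 79.9 in *KRT19* KO nuclei, a ratio of 1.76 (1.44 to 2.15), against 1.02 for all genes.

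**Figure D5:**
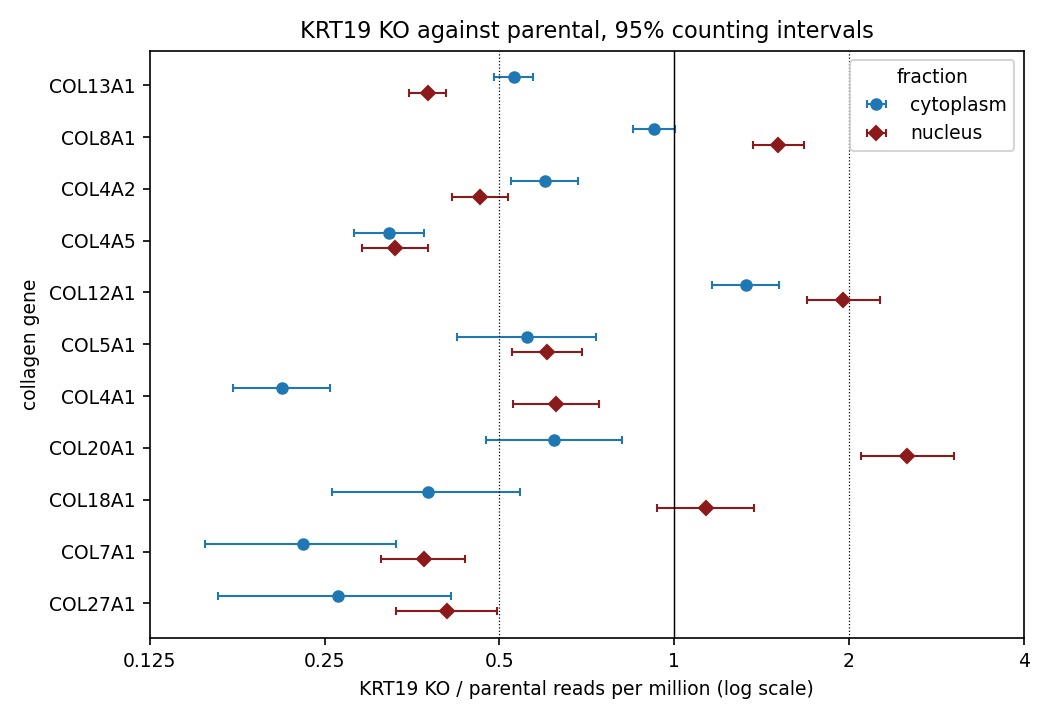
Ratio of *KRT19* KO to parental RPM (log axis) in the cytoplasm and the nucleus for the 11 collagen genes with at least 20 clusters, with 95% counting intervals. Dotted lines mark 2-fold. *COL4A5*, *COL7A1* and *COL27A1* lie left of 0.5 in both fractions, and *COL12A1* lies right of 1 in both. The share of all genes lower in both fractions was not computed.

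The same 3 genes, *COL4A5*, *COL7A1* and *COL27A1*, were lower by more than 2-fold in *KRT19* KO cells in either fraction. Of all genes tested, 22.4% were lower in the cytoplasm and 18.2% in the nucleus, and the share lower in both was not computed. *COL12A1* was above 1 in either fraction, at 1.33 and 1.95. *COL18A1* was at 0.376 in the cytoplasm and at 1.13 (0.935 to 1.37) in the nucleus. With clusters of at least 10 reads *COL18A1* was at 0.515 in the cytoplasm, no longer past 2-fold, and with at least 2 conversion locations it was at 6.52 in the nucleus. The nuclear ratio of *COL27A1* was 0.711 with at least 2 conversion locations, and the cytoplasmic calls of *COL4A5* and *COL27A1* were lost on the intronic scale given above. Whether the fractions differed in these ratios was not tested.

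Between fractions, collagens were lower in the cytoplasm than in the nucleus in both cell lines. The ratio of cytoplasmic to nuclear RPM was 0.447 (0.432 to 0.462) for the parental line and 0.416 (0.399 to 0.434) for *KRT19* KO. In parental cells 9 of 13 members tested were lower in the cytoplasm by more than 2-fold and none was higher, against 34.8% lower and 18.8% higher of 9590 genes tested. In *KRT19* KO cells 8 of 12 were lower and none was higher, against 41.2% and 24.4% of 9458 genes. There *COL8A1* and *COL13A1*, at 0.634 and 0.566, were at 0.451 and 0.409 without their strongest sites. The medians were 0.333 over members and 0.657 over all genes in parental cells, and 0.377 and 0.621 in *KRT19* KO cells. These comparisons use the same libraries as those between cell lines. As to the fractions themselves, nuclear *NEAT1* was lower in the cytoplasm (226.4 against 789.0 RPM in parental, 203.8 against 1092 in *KRT19* KO cells). Nuclear *MALAT1* was not (1229 against 887.6 and 842.3 against 548.1 RPM), and its part in these results was not tested.

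The lowest ratios of cytoplasm to nucleus in parental cells were 0.154 (0.127 to 0.185) for *COL5A1*, 0.154 (0.121 to 0.195) for *COL27A1* and 0.163 (0.135 to 0.196) for *COL7A1*. In *KRT19* KO cells *COL5A1*, *COL27A1* and *COL7A1* were at 0.142, 0.100 and 0.101 (0.223 for *COL27A1* without its coding site), with *COL18A1* at 0.101 (0.0710 to 0.140) and *COL20A1* at 0.127 (0.100 to 0.159). *COL8A1* at 1.04 (0.944 to 1.15) and *COL4A1* at 0.958 (0.840 to 1.09) showed no difference beyond counting error in parental cells. Without its strongest site *COL4A1* was at 0.312 (0.259 to 0.374), and *COL8A1* was at 0.885 (0.801 to 0.978). In clusters with at least 2 conversion locations *COL4A1* was at 5.42, so its direction rested on which clusters were counted. Both have a large 3′UTR part there. The *COL8A1* 3′UTR was higher in the cytoplasm at a ratio of 15.8 (8.70 to 32.1) in parental cells and 10.9 (7.45 to 16.5) with *KRT19* KO, whereas its introns were at 0.791 (0.714 to 0.878) and 0.320 (0.288 to 0.356). The *COL4A1* 3′UTR was at 5.00 (3.74 to 6.81) in parental cells and at 0.170 (0.0861 to 0.317) with *KRT19* KO, on the same 14 cytoplasmic reads in the latter. Of the 52 parental nuclear reads behind the former, 21 were at chr13:110843706-110843731 and 14 at chr13:110843500-110843524, both in that intron. At the site chr13:110802324-110802363 alone the parental ratio was 14.7 (9.08 to 25.5). *COL12A1* differed from both, since its 3′UTR was near even at 0.896 (0.557 to 1.46) and 0.924 (0.694 to 1.24). Coding clusters of *COL27A1* were at 0.0632 (0.0318 to 0.114) in parental cells, on 12 cytoplasmic and 121 nuclear reads.

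For intronic reads the collagen ratio of cytoplasm to nucleus was 0.393 (0.379 to 0.407) in parental cells, where all genes were at 0.632. It was 0.355 (0.339 to 0.372) in *KRT19* KO cells, where all genes were at 0.386. Per 1000000 intronic reads, 6 members were lower by more than 2-fold in parental cells and 4 in *KRT19* KO cells, where *COL6A2* was higher (2.64) and *COL4A2* and *COL4A5* turned to 1.12 and 1.28. *COL27A1* was there at 0.720 in place of 0.100, no longer past 2-fold. As above, no share of all genes called was taken on this scale. Collagen 3′UTR reads were higher in the cytoplasm by 3.53 (2.98 to 4.20) and 1.57 (1.36 to 1.81) times, against 5.92 and 8.73 times for all genes. Without the *COL4A1* site the former were 2.20 and 1.88.

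Most collagen sites were seen once. Merging clusters that shared 1 nt or more of a strand gave 1127 sites, of which 877 (77.8%) were in 1 library, 176 in 2, 58 in 3 and 16 in all 4. The share in 2 or more libraries was 22.2% (19.85 to 24.70%), and it was 24.6% over the sites of all genes. Of sites seen in 1 library, the parental nucleus alone held 335, or 29.7% of all collagen sites, against 21.0% over all genes. Reads summed over the libraries had a median of 8 for sites of 1 library and 113.5 for sites of 4 libraries. Every listed cluster has at least 5 reads, so part of this gap follows from the summing itself.

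The 16 sites present in every library lay in 7 genes and held 10.4% of the collagen reads. *COL13A1* and *COL8A1* had 4 each, *COL12A1* 3, *COL20A1* 2, and *COL4A2*, *COL4A5* and *COL7A1* 1 each. All but the 3′UTR site of *COL12A1* were intronic. The site with the most reads among them, in *COL13A1* at chr10:71638716-71638755, had 112, 99, 151 and 59 reads in the parental cytoplasm, *KRT19* KO cytoplasm, parental nucleus and *KRT19* KO nucleus. The *COL4A2* site at chr13:111034499-111034543 had 84, 28, 98 and 23 reads, and was thus lower in both *KRT19* KO libraries. A *COL8A1* site at chr3:99402098-99402127 had 16, 13, 21 and 67 reads, with the highest count in the *KRT19* KO nucleus. Of 28 sites with at least 100 reads summed over the libraries, 11 were found in all 4. The same share over all genes was not computed, and the part of read depth in site sharing was not tested.

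Collagen clusters were richer in C than those of other genes. C made up 30.5% of their bases against 27.0%, T 32.1% against 35.0%, and G 9.22% against 7.39%, while pyrimidines together were 62.6% and 62.0%. The C-rich motif was in 38.1% (35.65 to 40.62%) of collagen clusters and 31.5% (31.40 to 31.63%) of the clusters of other genes. Within introns the shares were 38.2% (35.65 to 40.82%) and 32.1% (32.00 to 32.27%). The difference was seen for introns in the parental cytoplasm (37.8% against 30.6%), the *KRT19* KO cytoplasm (41.7% against 31.5%) and the parental nucleus (40.5% against 32.9%), but not in the *KRT19* KO nucleus (33.1% against 33.3%). The simple run CCC was in 53.4% of collagen clusters and 42.6% of the others. In introns of the *KRT19* KO nucleus, CCC was in 51.3% (46.0 to 56.6%) against 44.2%, and C made up 32.2% of bases against 28.5%. Genes differed widely, with the motif in 60.4% of the clusters of *COL7A1*, 47.0% of *COL20A1*, 46.6% of *COL13A1* and 24.3% of *COL8A1*. Collagen reads carried a T-to-C change in 74.0% (73.46 to 74.59%) of cases against 65.9% in other genes, and in introns alone in 75.0% against 74.1%. Within libraries the intronic share was lower for collagens in the parental cytoplasm (69.3% against 74.3%). It was higher in the *KRT19* KO cytoplasm (71.7% against 68.0%), the parental nucleus (75.1% against 73.9%) and the *KRT19* KO nucleus (83.5% against 78.5%). A G ended 50.2% of collagen clusters and 47.7% of the others, where RNase T1, the enzyme used to trim the RNA, cuts after G.

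The intronic clusters did not gather at exons. Collagen genes had 44.5 introns per gene on average in their canonical transcript, against 11.98 in other genes with clusters. Of 1352 intronic collagen clusters placed on an annotated intron, 40 (2.96%, 2.18 to 4.004%) lay within 100 nt before an exon and 43 (3.18%, 2.37 to 4.26%) within 100 nt after one. The 100 nt before exons made up 2.89% of the intron bases. In other genes 1.65% of clusters lay before an exon, where the window was 1.49% of the bases. First introns held 27.7% (25.34 to 30.11%) of the collagen clusters and 26.2% of the others. Single large introns held many of the clusters in several genes, but they also made up a large part of the intron length. Intron 2 of *COL18A1* held 36 of 52 clusters, or 69.2% in 60.9% of the intron length. Intron 1 held 27 of 63 in *COL4A1*, or 42.9% in 42.3%, and 26 of 86 in *COL5A1*, or 30.2% in 24.98%. *COL7A1*, a gene of 118 short introns, had 10 of 37 in intron 16, which is 0.494 kb long, or 27.0% in 2.24% of the intron length.

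Per length of gene, the bound collagens covered a wide range. After *COL13A1*, *COL20A1* had 122 sites per 100 kb, *COL7A1* 106, *COL8A1* 104, *COL12A1* 66.4, *COL4A2* 66.1, *COL4A5* 53.9 and *COL18A1* 46.1. *COL5A1*, *COL4A1* and *COL27A1*, at 38.9, 36.7 and 26.1, were below the median of 44.6 over 12638 protein-coding genes with a site. The median over the 36 collagens with a site was 3.49 per 100 kb.

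Genes of collagen biosynthesis, receptors and breakdown were listed as a pathway around the members, and 36 of 44 had a cluster. Between *KRT19* KO and parental cytoplasm, 4 of 19 tested were higher by more than 2-fold and 3 lower, where 20.6% and 22.4% of all genes tested were. In the nucleus 1 of 24 was higher and 6 lower, against 14.4% and 18.2% of all genes. Between cytoplasm and nucleus, 4 of 22 were higher and 12 lower in parental cells (18.8% and 34.8% of all genes), and 4 of 23 were higher and 14 lower in *KRT19* KO cells (24.4% and 41.2%). Among the hydroxylases, *PLOD2*, which hydroxylates lysines for crosslinks, had 220.8, 98.8, 349.1 and 206.0 RPM in the parental cytoplasm, *KRT19* KO cytoplasm, parental nucleus and *KRT19* KO nucleus. *LEPREL1*, a prolyl 3-hydroxylase now named *P3H2*, had 172.6, 31.5, 357.9 and 139.3 RPM. Both were thus lowest in the *KRT19* KO cytoplasm, as were most of the collagens with at least 20 clusters. Intronic reads of all genes were lowest there too, at 230271 RPM. They were at 423487 in the parental cytoplasm, 669633 in the parental nucleus and 596810 in the *KRT19* KO nucleus. Their part in this likeness was not tested, and the share of all genes lowest in that library was not computed. *P4HB*, a subunit of prolyl 4-hydroxylase, had 22.9, 30.4, 88.2 and 129.7 RPM.

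The folding and export genes tested were all above 1 in *KRT19* KO relative to parental cytoplasm, where the median over all genes was 0.935. *PPIB* at 2.37 and *COLGALT2* at 2.26 passed 2-fold, whereas *COLGALT1* at 1.25 and *CTAGE5* at 1.17 did not. In the nucleus they went both ways, from 0.696 for *COLGALT1* to 3.05 for *PPIB*. The collagen chaperone *SERPINH1* (HSP47) had 88.4 and 189.5 RPM in the parental and *KRT19* KO cytoplasm and 40.7 and 74.4 in the nuclei. *MIA3*, which loads collagen for export from the endoplasmic reticulum, had 72.4 and 159.3 RPM in the cytoplasm and 34.2 and 57.2 in the nuclei. *COLGALT1*, a collagen galactosyltransferase, had 34.2 and 42.6 in the cytoplasm and 38.4 and 26.7 in the nuclei. Their cytoplasmic reads were mostly in 3′UTRs, with 88.4 and 189.5 RPM of *SERPINH1* and 69.9 and 152.5 RPM of *MIA3* there. In *KRT19* KO relative to parental cytoplasm *SERPINH1* was at a ratio of 2.14 and *MIA3* at 2.20. The 3′UTR reads of all genes were at 1.498 in that comparison, and their part in these 2 ratios was not tested.

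Among crosslinking enzymes, the lysyl oxidase *LOX* had all of its 15 clusters in the 3′UTR. It had 224 and 378 reads in the parental and *KRT19* KO cytoplasm against 5 and 7 in the nuclei, ratios of 28.5 and 28.3. *LOXL2*, with 114 of 120 clusters in introns, had ratios of 0.374 and 0.365, and *LOXL1* had 32 reads in all. Of the procollagen-processing genes, *TLL2*, *BMP1* and *ADAMTS3* had 246, 140 and 117 reads over the 4 libraries. The receptor *ITGA2* had 135.3, 42.0, 184.6 and 91.6 RPM in the parental cytoplasm, *KRT19* KO cytoplasm, parental nucleus and *KRT19* KO nucleus. *ITGA1* had 63.0, 59.2, 53.1 and 32.3, and *DDR2* 29.7, 25.4, 59.6 and 64.3. Of the degradation genes, *MMP14* and *CTSK* were the only ones with a cluster, at 276 and 134 reads.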

How the data were processed

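HNRNPK PAR-CLIP libraries of the cytoplasm and nucleus of parental and *KRT19* KO MDA-MB-231 cells were analysed, with 1 library per condition, and 17 RNA-seq samples were not used here. According to the methods, the authors collapsed identical reads, aligned them to hg19 and called clusters with PARalyzer within PARpipe. Labels name bcl2fastq 2.20.0. The authors deposited raw counts of reads, unique reads and conversion locations per cluster. The fractions, the mode score and the log10 conversion specificity that the authors deposited beside them were not used. All 1467 collagen cluster sequences equalled GRCh37.

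Reads were scaled to 1000000 reads in clusters. Sites and introns used GENCODE release 44 lifted to GRCh37, which is newer than the authors' annotation. Values in all libraries are given for collagens with at least 20 clusters or 50 reads in 3′UTR or coding clusters, ratios for those with at least 50 reads in both libraries, and the 3 genes with the most reads of each pathway role. The collagens as a set, and the pathway and motif lists, were chosen with earlier results of these data known, while membership followed the gene symbol. The ratio, interval and merging steps were tested on simulated data. Alternatives covered cluster filters, unique reads, scaling, motif and overlap. Python 3.11.15, numpy 2.4.6, pandas 2.3.3, scipy 1.17.1 and matplotlib 3.10.9 were used.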

Additional observations from a re-analysis of the deposited data

Results flagged for a closer look

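The ratio of *KRT19* KO to parental RPM of *COL20A1* was 0.621 in the cytoplasm and 2.52 in the nucleus. The cytoplasmic value was 1.02 in clusters with at least 2 conversion locations and 1.23 for intronic clusters on the intronic scale, so its side of 1 did not hold. The difference between the fractions was not tested. *COL6A2* went the opposite way, at 2.32 in the cytoplasm and 0.494 in the nucleus, on 15 to 44 reads per library in intronic clusters. The 3′UTR reads of all collagens were at 0.781 in the cytoplasm and 1.76 in the nucleus, and the former was 1.40 without 1 site of *COL4A1*. These differences were likewise not tested.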

How the results depend on the processing

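No paired analysis was possible because each condition has 1 library, and no library could be left out for the same reason. Of 216 recomputed ratios of called collagens, 212 kept their direction and 29 were no longer past 2-fold. These include the setting of at least 200 reads, which cannot change a ratio. Members that fell under the read minimum of a setting are left out, so the tally is not a measure of robustness. With clusters of at least 10 reads, the collagen ratios were 0.551 and 0.613 for *KRT19* KO to parental cytoplasm and nucleus, and 0.418 and 0.376 for cytoplasm to nucleus in parental and *KRT19* KO cells. The genes higher in *KRT19* KO cells were 0 and 2, the sites in several libraries 25.05% and the motif share 42.7%. With at least 2 conversion locations, the nuclear *KRT19* KO ratio was 0.561 and the parental fraction ratio 0.377, genes higher were 0, 2 and, in parental cytoplasm, 1, the 3′UTR share was 5.94%, the sites 32.2% and the motif share 52.3%. With at least 2 unique reads these ratios were 0.593 and 0.424, genes higher 0 and 2, the sites 26.2% and the motif share 43.0%. Counting unique reads gave 0.554 for the cytoplasmic *KRT19* KO ratio, 0.426 and 0.371 for the fraction ratios, and 0 and 2 genes higher. Without the top cluster of each library the parental fraction ratio was 0.473. Median centring gave 2 genes higher in *KRT19* KO nuclei.

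Per 1000000 intronic reads, *KRT19* KO cells had 2 genes higher and 1 lower in the cytoplasm and 2 higher in the nucleus, and their cytoplasm had 1 higher and 4 lower than the nucleus. There *COL4A1* turned to 1.23 (*KRT19* KO to parental cytoplasm), and *COL4A2* and *COL4A5* to 1.12 and 1.28 (cytoplasm to nucleus, *KRT19* KO). With at least 200 reads, 0 genes were higher and 2 lower in *KRT19* KO cytoplasm. By reads, introns held 88.0% and 3′UTRs 9.04%. Other motifs, CCC and T followed by T or C and CCC, were in 53.4% and 23.4% of clusters. Without the strongest site of each gene, an alternative chosen after seeing the data, 0 and 2 genes were higher in *KRT19* KO cytoplasm and nucleus, and *COL6A1* turned to 1.17 in the nucleus. Without the *COL4A1* 3′UTR site, also chosen after seeing the data, the 3′UTR ratios were 1.40 for *KRT19* KO to parental cytoplasm, a reversal, and 2.20 and 1.88 for cytoplasm to nucleus. The causes of these changes were not tested. No share of all genes called was taken under any alternative, so these counts of genes have no baseline. *COL6A2* rests on 15 to 44 reads per library.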

Other observations

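Apart from the collagens themselves, *COL4A2-AS1*, an antisense transcript, had 2 clusters with 14 reads in the parental nucleus, and none was listed in the other 3 libraries.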
